A study of Drosophila melanogaster with 35 samples.

Results

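The 10 genes described here belong to the TOR (target of rapamycin) pathway of Drosophila melanogaster. They are Thor, Tor, raptor, S6k, Tsc1, gig, Rheb, REPTOR, REPTOR-BP and Sesn, chosen by symbol and matched to the fat body table through their FlyBase gene identifiers. All 10 were found among 14649 rows, and all 10 passed the filter on low counts that left 9819 genes for testing. Tor carries the symbol mTor in the reference annotation (FBgn0021796). The 17 fat body libraries are part of 35 poly(A) RNA libraries, of which the gut libraries were not used here. All flies were mated females aged 30 days. They carried S106, a GeneSwitch driver that activates a UAS transgene while the flies eat the steroid RU486. One genotype carried S106 alone and the other, S106>UASfoxo, also carried UASfoxo, a transgene that encodes the forkhead factor dFOXO, which insulin signalling holds back. RU486 at 200 µM was given to the switch groups over 21 days, after which they spent 7 days on food without it. The induction label marks the control groups as not given RU486, while the treatment text, which is the same for every sample, describes the feeding. Every switch against control value therefore rests on the induction label and the titles. The sample titles call the S106 genotype WT. The libraries of the S106 genotype were 5 controls and 4 after the switch, and those of S106>UASfoxo were 4 of each. S106 is known to act in both the fat body and the gut, so that the transgene is not confined to the tissue measured. The labels name neither the number of flies in a library nor separate cultures. The p-values therefore measure only the spread between these libraries, which may be technical.

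TOR is a protein kinase that couples growth to nutrients. In the complex TORC1 it works with raptor, which brings substrates to the kinase, and the small GTPase Rheb switches it on. Tsc1 and gig (the fly TSC2) form the complex that turns Rheb off, and Sesn (sestrin) restrains TORC1 under stress and amino acid shortage. Active TORC1 phosphorylates S6k, the ribosomal protein S6 kinase, and Thor, the only fly 4E-BP, which blocks the cap-binding protein eIF4E when it is not phosphorylated. TORC1 also keeps the transcription factor REPTOR and its partner REPTOR-BP from acting, and Thor is a known transcriptional target both of REPTOR and of dFOXO. In the fly fat body TOR acts as an amino acid sensor that sets the growth of the whole larva. Transcript counts do not report phosphorylation, by which most of these proteins are regulated.

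Total counts per library ran from 6708078 to 27527703. The markers of fat body were present in every group, with 16 of 16 markers counted and a summed level of 26604 to 148740 CPM (counts relative to the library's total, scaled with edgeR's TMM factors). Transcripts of other tissues were also present. The ovary and egg markers summed to 79.3 to 6944 CPM, with all 27 counted, and the enterocyte markers to 15.4 to 884 CPM, with all 14 counted. Hemocyte markers summed to 315 to 1231 CPM and muscle markers to 1215 to 4842 CPM. Oenocyte markers, which include enzymes of lipid synthesis that fat body also expresses, summed to 21271 to 93219 CPM, neuron markers to 71.9 to 162 CPM and spermatheca markers to 0 to 66.4 CPM. Libraries also differed in how level related to gene length. The slope of log2 CPM on the log2 of exon length, relative to the mean of the libraries, ran from −0.24 to −0.01 in the S106>UASfoxo controls and from −0.14 to 0.19 in the S106>UASfoxo switch libraries. In bulk tissue, fewer cells of a type and less RNA per cell cannot be told apart. Overlaps in the annotation limit what the counts can say of raptor and Sesn. Of the exon bases of Sesn, 65.1 percent are shared with CG46429 on the same strand, and of those of raptor, 23.5 percent are shared with Mipp2 on the same strand.

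The transcript of foxo itself was measured a week after RU486 was withdrawn, so it does not test the induction. It stood at 93.3, 72.5, 177 and 78.2 CPM in the S106>UASfoxo controls and at 157, 160.3, 240.1 and 95.0 CPM in the S106>UASfoxo switch libraries. Switch over control gave a log2 fold change of 0.63 ± 0.35 (SE, n = 4 libraries in each group), with an adjusted p of 0.457 in edgeR's quasi-likelihood test. The groups overlapped, with 1 of 4 switch libraries, replicate 3, above every control.

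The 10 genes covered a wide range of levels. Per kilobase of exon Thor was the most abundant in every library, and raptor, gig and Tor had the lowest means. Thor had a mean of 897 ± 377 CPM per kb (SD, n = 17), at the 98.6 percentile of the tested genes with a known exon length. Rheb followed at 101 ± 21.9 and REPTOR-BP at 59.9 ± 17.7. Thor lay above Rheb in 17 of 17 libraries with a median ratio of 9.31, and their ranges did not overlap. S6k stood at 49.9 ± 12.4 CPM per kb and Sesn at 41.7 ± 13.2, the latter with the shared exons noted above. REPTOR stood at 17.5 ± 7.97 and Tsc1 at 11.5 ± 3.81 CPM per kb. The lowest levels were those of raptor at 6.16 ± 2.67, gig at 4.89 ± 1.48 and Tor at 3.96 ± 1.07 CPM per kb. Several neighbours in this order were not separated across libraries. REPTOR-BP exceeded S6k in 12 of 17 libraries, REPTOR exceeded Tsc1 in 12 and raptor exceeded gig in 10.

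**Figure D1:**
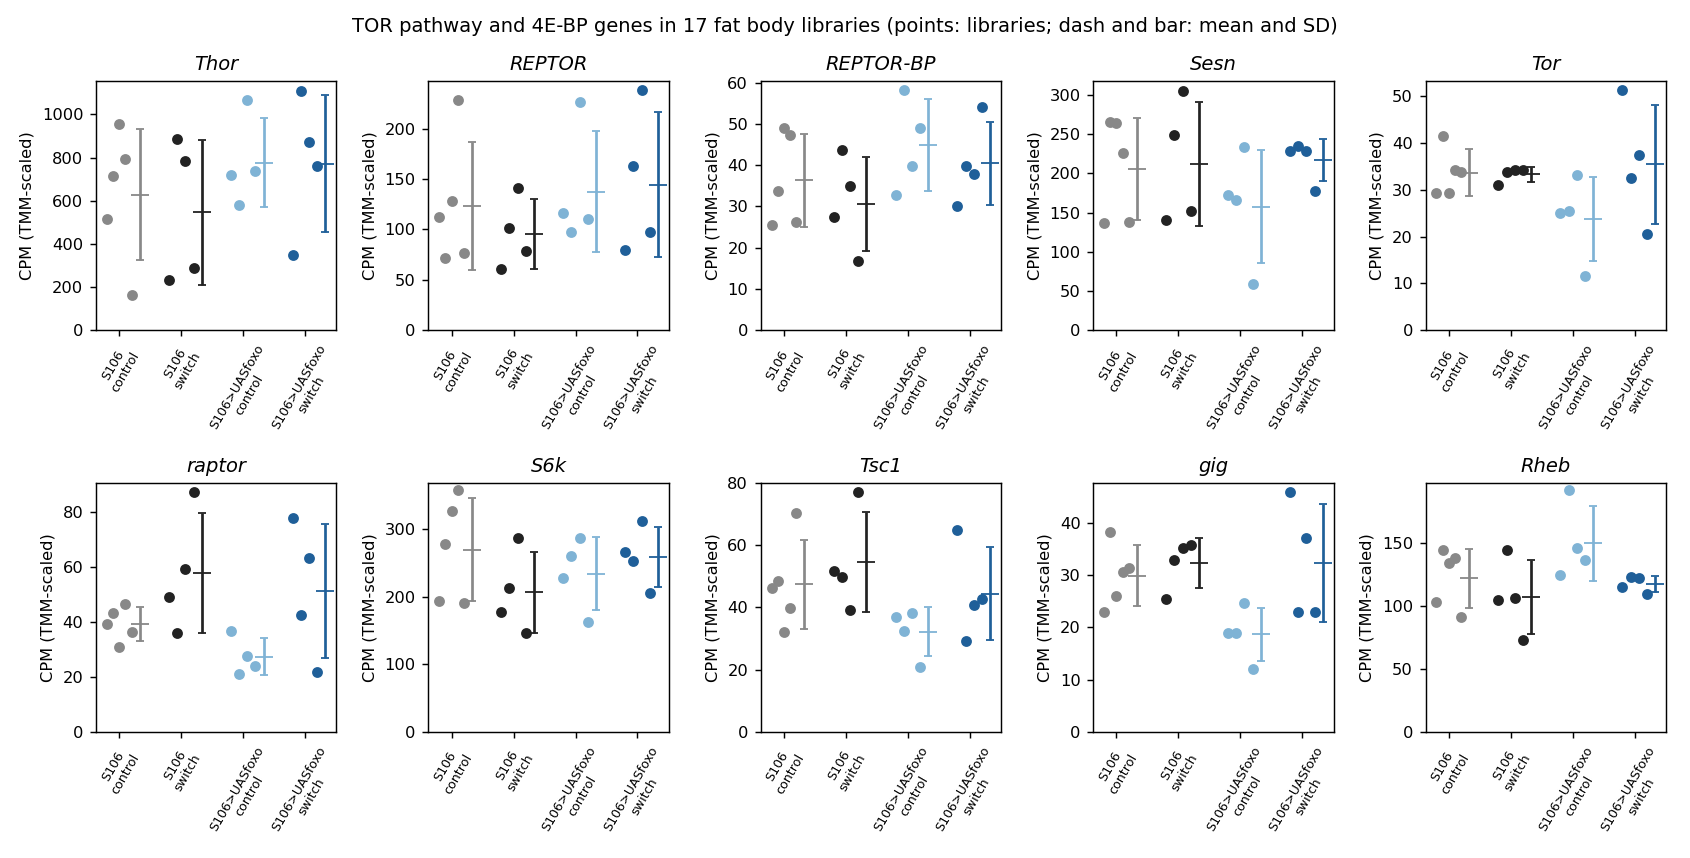
Levels of the 10 genes in each of the 17 fat body libraries, in TMM-scaled CPM on linear axes that start at 0, by group; points are libraries and the dash with its bar is the group mean with SD. Rheb is the gene whose S106>UASfoxo switch libraries (109 to 123 CPM) all lie below the S106>UASfoxo controls (124 to 192 CPM), while the other 9 genes overlap between these groups.

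Thor (FBgn0261560, chromosome 2L, 3478434 to 3479612, plus strand, BDGP6) had the largest pooled within-group spread of the 10 genes, but not the largest in each group. Its level was 719, 582, 1067 and 739 CPM in the S106>UASfoxo controls and 348, 1108, 870.0 and 762 CPM in the S106>UASfoxo switch libraries. The switch libraries held both a lower and a higher value than any control. Their means were 777 ± 206 and 772 ± 317 CPM (SD, n = 4 each). The S106 controls stood at 513, 714, 957, 792 and 163 CPM, and the S106 switch libraries at 232, 884, 783 and 285 CPM. The 3 lowest Thor values of the 17 libraries were thus in the S106 groups. The log2 fold change of S106>UASfoxo switch over control was −0.01 ± 0.51 (SE), with a 95% interval from −1.10 to 1.08 and an adjusted p of 0.996. The within-group SD of log2 CPM, pooled over the 4 groups, was 0.83 for Thor, against a median of 0.55 over all tested genes and 0.29 for Rheb. By group, the SD of Thor was 1.02 in the S106 controls and 0.99 in the S106 switch libraries. In the S106>UASfoxo controls it was 0.36, where Sesn had 0.86. In the S106>UASfoxo switch libraries it was 0.72, where raptor had 0.81.

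The ratio of Thor to eIF4E1, the main fly eIF4E and the protein that 4E-BP holds, was taken within each library per kilobase of exon. In the S106>UASfoxo controls it was 6.46, 7.08, 12.9 and 5.06, and in the switch libraries 3.98, 14.4, 11.3 and 7.72. The ranges overlapped. The mean log2 ratio differed by 0.19 (exact two-sided permutation p = 0.743, adjusted p = 0.746 over 6 such tests). In the S106 genotype the ratio ran from 1.25 to 11.5 in the controls and from 1.88 to 10.5 in the switch libraries, with a difference of −0.33 (exact permutation p = 0.714, adjusted p = 0.746). The smallest p that this test allows is 0.0286 for 4 against 4 libraries and 0.00794 for 5 against 4.

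Tor and raptor, the kinase and its substrate-binding subunit, had higher means in the S106>UASfoxo switch libraries than in their controls, without passing the test. Tor (chromosome 2L, 13004480 to 13013197, plus strand) stood at 25.0, 25.4, 33.2 and 11.5 CPM in the controls and 51.3, 32.5, 37.5 and 20.6 CPM in the switch libraries. The highest of the 17 Tor values was that of switch replicate 1 and the lowest that of control replicate 4. The S106 groups lay between, at 29.3 to 41.6 CPM in the controls and 31.0 to 34.3 CPM in the switch libraries. For Tor the log2 fold change was 0.58 ± 0.29 (SE), with an adjusted p of 0.412. It was 0.29 without switch replicate 1 and 0.35 without control replicate 4.

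For raptor (FBgn0029840; chromosome X, 6082634 to 6090201, minus strand) the controls held 36.8, 21.2, 27.6 and 24.1 CPM and the switch libraries 78.0, 42.7, 63.2 and 21.7 CPM. Of the 4 switch libraries, 3 lay above every control, and replicate 4 lay near the lowest control. The log2 fold change was 0.91 ± 0.34 (SE), with an unadjusted p of 0.0170 and an adjusted p of 0.293 in edgeR's test. Without switch replicate 1 it was 0.57. In the S106 genotype raptor stood at 30.9 to 46.5 CPM in the controls and at 49.0, 36.2, 59.2 and 87.5 CPM in the switch libraries, with a log2 fold change of 0.56 ± 0.32. The ratio of raptor to Tor passed the adjusted test in neither genotype. In the S106 genotype the log2 ratio differed by 0.50 (exact permutation p = 0.0397, adjusted p = 0.238), and by 0.30 without switch replicate 4. In the S106>UASfoxo genotype it differed by 0.18 (exact permutation p = 0.6, adjusted p = 0.746).

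Of the pair that turns Rheb off, gig had the smallest p-value of the 10 genes. gig (FBgn0005198; chromosome 3L, 20129181 to 20139010, plus strand) stood at 19.0, 19.0, 24.6 and 12.1 CPM in the S106>UASfoxo controls and at 46.0, 23.0, 37.0 and 22.9 CPM in the switch libraries. Switch replicates 1 and 3 lay above every control, and the other two lay below the highest control only. The means were 18.6 ± 5.12 and 32.2 ± 11.3 CPM (SD, n = 4 each), beside 29.8 ± 5.85 in the S106 controls (n = 5) and 32.3 ± 4.80 in the S106 switch libraries (n = 4). The log2 fold change was 0.79 ± 0.26 (SE), with an unadjusted p of 0.00861 and an adjusted p of 0.274. It was 0.52 without switch replicate 1 and 0.63 without control replicate 4. Tsc1 (FBgn0026317; chromosome 3R, 24130307 to 24134654, plus strand) held 36.9, 32.6, 38.2 and 20.8 CPM in the controls and 65.0, 29.2, 40.6 and 42.6 CPM in the switch libraries. Here 3 of the 4 switch libraries exceeded every control. Its log2 fold change was 0.47 ± 0.30, with an adjusted p of 0.524, and it was 0.18 without switch replicate 1 and 0.31 without control replicate 4. The log2 ratio of Tsc1 to gig was lower by 0.32 in the switch libraries, at a mean of 1.04 ± 0.32 against 1.36 ± 0.13 (SD, n = 4 each; exact permutation p = 0.114, adjusted p = 0.343).

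Rheb (FBgn0041191; chromosome 3R, 5568921 to 5570491, plus strand), the activator of TORC1, went the other way. The S106>UASfoxo controls held 124, 192, 146 and 136 CPM and the switch libraries 115, 123, 122 and 109 CPM. All 4 switch libraries lay below all 4 controls, although the nearest values were 123 and 124 CPM. The S106 libraries, at 72.9 to 145 CPM, overlapped both groups. The log2 fold change was −0.35 ± 0.22 (SE), with an adjusted p of 0.511, and it was −0.21 without control replicate 2. Rheb was the 1 member of 10 whose groups did not overlap in this comparison. Of all tested genes 4.17 percent did not overlap, 1.89 percent in the lower direction.

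Among the effectors, S6k (FBgn0283472; chromosome 3L, 5797549 to 5810931, minus strand) stood at 227, 260.0, 287 and 162 CPM in the S106>UASfoxo controls and at 266, 252, 311 and 205 CPM in the switch libraries. The groups overlapped, and the log2 fold change was 0.14 ± 0.27 (SE) with an adjusted p of 0.867. REPTOR (FBgn0039209; chromosome 3R, 24557368 to 24582864, minus strand), the factor that becomes active when TORC1 is low, held 116, 97.4, 226 and 110.0 CPM in the controls and 79.5, 163, 238 and 97.7 CPM in the switch libraries. In both groups replicate 3 was the highest library. The log2 fold change was 0.07 ± 0.43, and it was −0.13 with the library-number block. REPTOR-BP (FBgn0032202; chromosome 2L, 10264125 to 10265229, plus strand), its bZIP partner, stood at 32.8 to 58.3 CPM in the controls and 30.1 to 54.2 CPM in the switch libraries, with a log2 fold change of −0.15 ± 0.31.

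Sesn (FBgn0034897; chromosome 2R, 23713900 to 23734846, plus strand), the stress-induced inhibitor, held 172, 166, 233 and 59.0 CPM in the S106>UASfoxo controls and 229, 234, 228 and 177 CPM in the switch libraries. Control replicate 4 was the lowest of the 17 libraries for Sesn. The exons shared with CG46429 make the count uncertain. Its log2 fold change was 0.46 ± 0.37 (SE), with an adjusted p of 0.633, and it was 0.19 without control replicate 4.

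The S106>UASfoxo switch and control groups differ both in past RU486 feeding and in past dFOXO induction, which their comparison cannot tell apart. In this comparison none of the 10 genes passed the threshold of 0.05 on the adjusted p. Neither did any other gene (0 percent of those tested). DESeq2 called 61 genes, limma-voom 0, and neither called a member. The unadjusted p was under 0.05 for 2 of 10 members, raptor and gig, both higher in the switch libraries. The background was 12.9 percent of all tested genes, 10.1 percent in the higher direction. Without switch replicate 1 the count was 0 of 10, and the background was 8.16 percent. The count was 3 of 10 without control replicate 3 (background 17.3 percent) and with the library-number block (18.2 percent). With the ovary and egg covariate it was 4 of 10 (31.3 percent). In all, 7 members had a positive and 3 a negative log2 fold change, where 4763 of 9819 tested genes were positive. The number of positive members was 6 with the library-number block and 8 with the ovary and egg covariate. The median of the members was 0.30, against −0.02 over all tested genes. This median was 0.17 with the trend on exon length removed, and it was lowest at 0.095 without control replicate 4 and highest at 0.49 without control replicate 3. With the mean of the ovary and egg markers as a covariate, gig had a log2 fold change of 0.86 ± 0.25 and an adjusted p of 0.038. In that fit 1237 genes passed, which is 12.6 percent of those tested.

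In the same comparison the median log2 fold change was above 0 for every marker list, fat body included. For the 10 tested enterocyte markers the median log2 fold change was 2.69 and 9 were positive, and their summed level was 15.4 to 65.2 CPM in the S106>UASfoxo controls and 22.4 to 624 CPM in the switch libraries. For the 10 hemocyte markers the median was 0.41, with 9 positive and sums of 315 to 466 and 400 to 1141 CPM. Among the 24 tested ovary and egg markers the median was 1.13, with 18 positive and sums of 84.8 to 2991 and 344 to 3222 CPM. Fat body markers were positive in 10 of 15 tested (median 0.19) and muscle markers in 11 of 12 (median 0.22). Oenocyte markers were positive in 5 of 6, neuron markers in 5 of 7 and spermatheca markers in 2 of 2. Over all tested genes 4763 of 9819 were positive. Between the S106>UASfoxo and the S106 controls all 10 tested enterocyte markers were lower, with a median of −2.05. None of these markers passed after adjustment, and their part in the values of the 10 genes was not tested except for the ovary and egg mean.

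**Figure D2:**
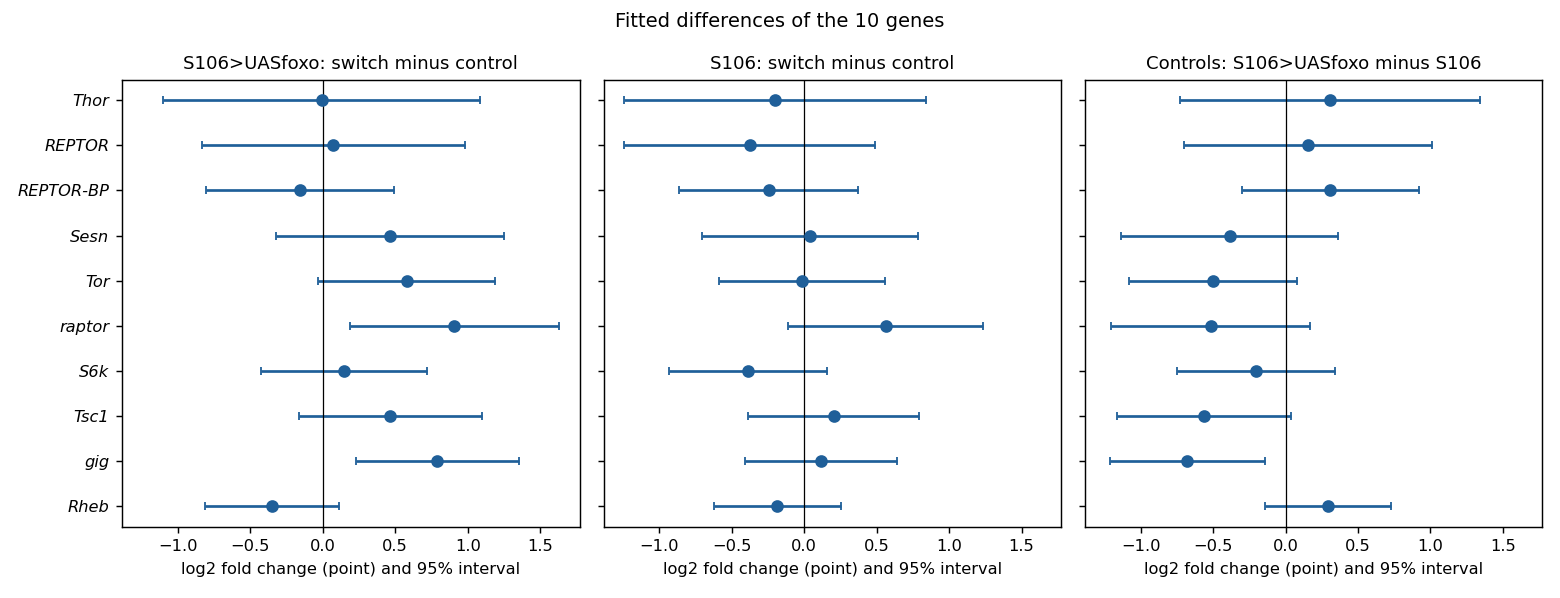
Fitted log2 fold changes (points) and 95% intervals (bars) of the 10 genes for S106>UASfoxo switch against control, S106 switch against control, and the S106>UASfoxo against the S106 controls. In the left panel the intervals of raptor and gig lie above 0, in the middle panel every interval crosses 0, and in the right panel that of gig lies below 0; no member passed after adjustment over all genes.

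Fold changes in this comparison moved with exon length across the genome. Over 9739 genes the Spearman correlation of log2 fold change with exon length was 0.38, a description across genes, which are not independent. The median log2 fold change was −0.26 for genes under 1 kb of exon, −0.12 from 1 to 2 kb, 0.10 from 2 to 4 kb, 0.27 from 4 to 6 kb and 0.33 over 6 kb. The members follow a similar order. Thor, Rheb and REPTOR-BP, with 755, 1225 and 634 bp of exon, are the shortest and had the 3 negative values, while Tor, raptor and gig, with 7987, 7097 and 5795 bp, had the 3 highest positive values. REPTOR, with 7133 bp, had a log2 fold change of 0.07. With each library's trend on exon length removed, an alternative chosen after seeing the data, gig stood at 0.42 ± 0.21 (SE), with an adjusted p of 0.432, and raptor at 0.51 ± 0.27, with an adjusted p of 0.455. Tor stood at 0.20, Tsc1 at 0.18 and Sesn at 0.17, and 0 of 10 members had an unadjusted p under 0.05, where the background in that fit was 12.5 percent.

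**Figure D3:**
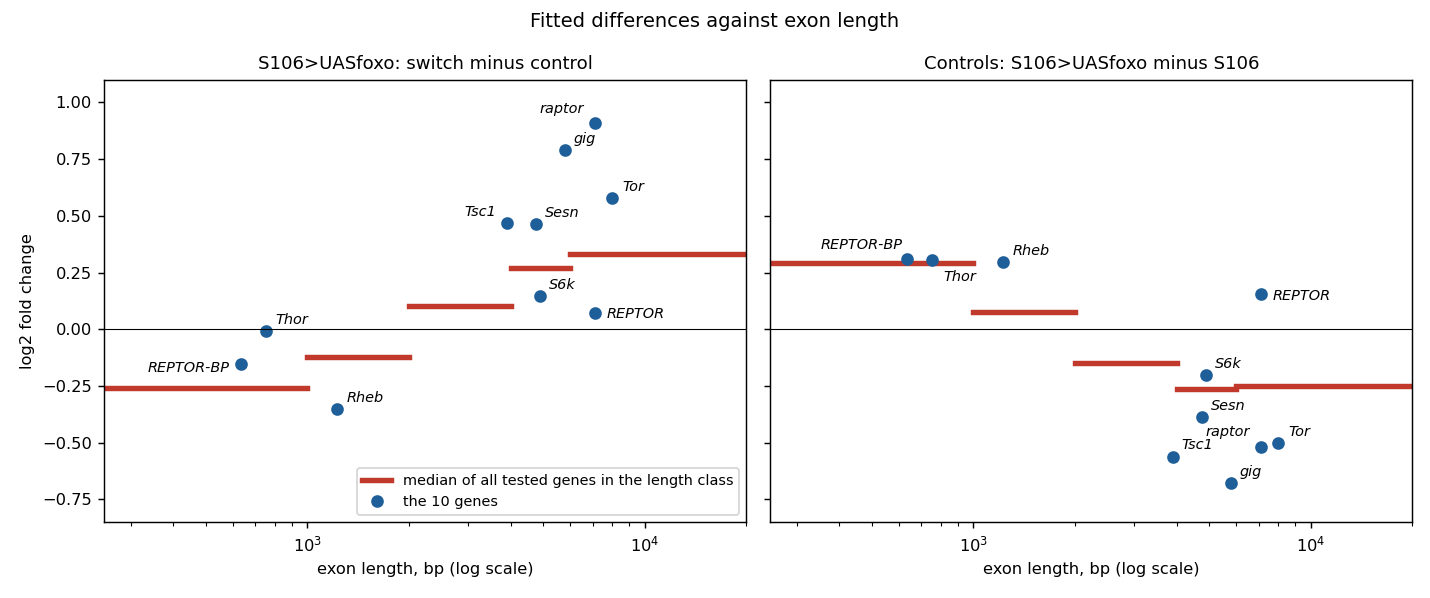
Log2 fold change against exon length in base pairs (log axis) for the 10 genes (points) and the median of all tested genes in each length class (bars), for S106>UASfoxo switch against control (left) and for the S106>UASfoxo against the S106 controls (right). The class medians go from −0.26 to 0.33 with length on the left and from 0.29 to −0.25 on the right, and the short and long members lie on the same sides of 0 as their classes, except REPTOR on the right.

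The comparison of S106 switch with S106 control asks what RU486 feeding and its withdrawal leave behind without the transgene. No member passed edgeR's test, 0 percent of all tested genes passed, and 0 of 10 members had an unadjusted p under 0.05, where the background was 0.693 percent (68 genes). DESeq2 called 1 gene and limma-voom 0. The largest differences were those of raptor, at 0.56 ± 0.32 (SE), S6k, at −0.39 ± 0.26, and REPTOR, at −0.38 ± 0.41. Without S106 switch replicate 4 raptor was at 0.29 and S6k at −0.25, and without S106 control replicate 4 REPTOR was at −0.029. S6k held 194, 277, 327, 358 and 191 CPM in the S106 controls and 178, 213, 287 and 147 CPM in the switch libraries, and these overlapped. The ovary and egg markers summed to a median of 293 CPM in the S106 controls (79.3 to 4671) and 2392 CPM in the S106 switch libraries (93.6 to 6944), with 23 of 24 tested markers positive and a median log2 fold change of 0.71. Their part in these values was not tested except through the ovary and egg mean. With that mean as a covariate the median log2 fold change of the members was −0.0024, against −0.10 without it. The covariate fit had 5 members positive and 5 negative, against 4 and 6 without it. Without the covariate Tor was at −0.01 ± 0.27 and Thor at −0.20 ± 0.49. The switch effect of S106>UASfoxo minus that of S106 was tested as an interaction. It was 0.68 ± 0.36 for gig, 0.59 ± 0.40 for Tor, 0.53 ± 0.37 for S6k and 0.19 ± 0.71 for Thor, with adjusted p-values from 0.950 to 0.972 for these 4. The value was positive for 9 of 10 members and for 5191 of 9819 tested genes, with medians of 0.38 and 0.04. No member had an unadjusted p under 0.05, where the background was 1.88 percent. With the library-number block 7 members were positive, and 8 with the exon length trend removed. With single libraries left out the number ran from 7 to 10. Over all genes with a known exon length, the Spearman correlation of this value with that length was 0.27.

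The S106>UASfoxo and S106 controls differ in the transgene without induction. This comparison shares the S106>UASfoxo controls with the switch comparison of that genotype, so the same 4 libraries enter both with opposite sign. No member passed, while 4 genes, or 0.0407 percent, did. The log2 difference was −0.68 ± 0.25 (SE) for gig, with an unadjusted p of 0.0160 and an adjusted p of 0.392, −0.56 ± 0.28 for Tsc1, −0.52 ± 0.32 for raptor and −0.50 ± 0.27 for Tor. Thor stood at 0.31 ± 0.49, REPTOR-BP at 0.31 ± 0.29 and Rheb at 0.29 ± 0.21. gig was the 1 member of 10 with an unadjusted p under 0.05, where the background was 11 percent, or 8.83 percent in the lower direction. Without S106>UASfoxo control replicate 4 its value was −0.52 and 0 members were under 0.05, where the background was 4.94 percent. The Spearman correlation with exon length was −0.43 here, and with the length trends removed gig stood at −0.40. The library-number block, which paired the control groups, gave −0.72 ± 0.21 for gig, −0.68 ± 0.26 for Tsc1 and −0.59 ± 0.22 for Tor, with 3 members under an unadjusted 0.05 and none past adjustment. In that fit 16.8 percent of all tested genes were under an unadjusted 0.05, and 2 genes were called. After RU486 the genotypes differed by 0.60 ± 0.43 for REPTOR, 0.50 ± 0.52 for Thor and 0.00 ± 0.26 for gig. There 5 genes, or 0.0509 percent, passed, none of them a member, and 0 of 10 members had an unadjusted p under 0.05, where the background was 1.57 percent.

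Of the 10 genes, 7 were placed in opposed sets by how they varied over the 17 libraries. The sets were picked from these same correlations, so the signs within and between them are no test. These correlations describe the libraries, which share groups, depth and the length trends above. Tor and gig were the most alike pair, with a Pearson r of 0.91, and the 6 pairs among Tor, gig, raptor and Tsc1 ran from 0.60 to 0.91. The 3 pairs among Thor, Rheb and REPTOR-BP ran from 0.61 to 0.81. All 12 pairs between these sets were negative, from −0.74 to −0.17. With group means removed 10 of these 12 were negative, while Tor with Rheb was 0.17 and gig with Rheb 0.11. Thor, Rheb and REPTOR-BP have the 3 shortest exon lengths of the members, and Tor, gig, raptor and Tsc1 have 3896 to 7987 bp. Sesn correlated at 0.75 with Tor, at 0.74 with S6k and at 0.68 with gig, and REPTOR correlated at 0.70 with Thor. S6k, in neither set, was at 0.44 with Tor, 0.33 with gig, 0.02 with raptor and −0.26 with Tsc1. With the other set S6k was at 0.57 with Thor, 0.55 with Rheb and 0.49 with REPTOR-BP. Of all 45 pairs, 29 were positive.

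**Figure D4:**
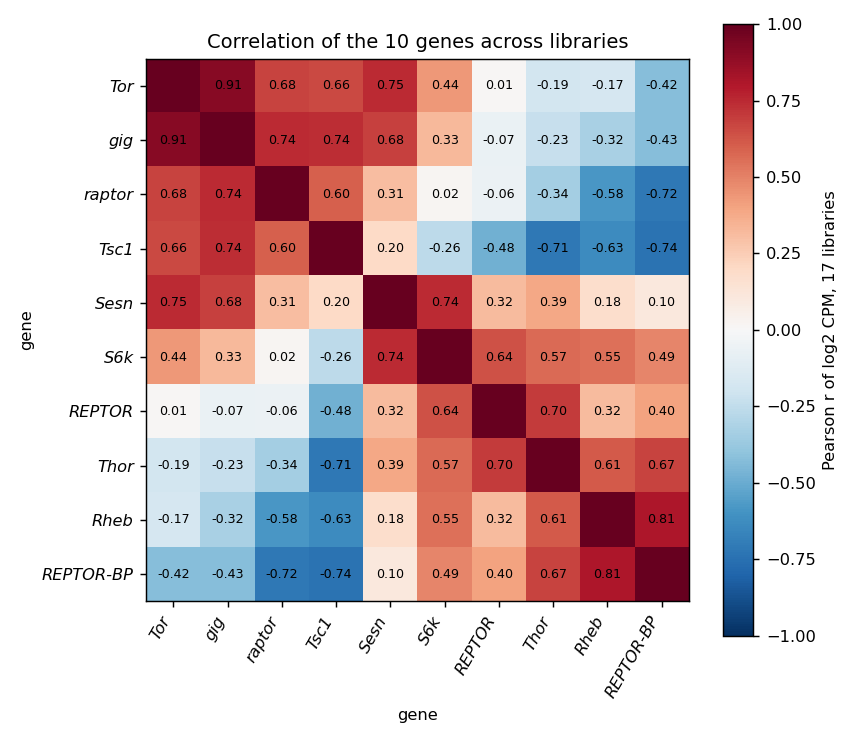
Pearson correlation of log2 CPM between each pair of the 10 genes over the 17 fat body libraries, in colour from −1 to 1 with the value in each cell. Tor, gig, raptor and Tsc1 are positive with each other (0.60 to 0.91) and negative with Thor, Rheb and REPTOR-BP (−0.74 to −0.17).

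For each member the 3 tested genes outside the set with the highest Pearson r over the 17 libraries were listed. Thor was most like CG8292 (0.95), Nepl9 and Cyp6a9, and Tor was most like Gdh (0.95), YME1L and Glyp. For raptor the list was lig (0.96), HDAC4 and r, and for S6k it was ex (0.93), Smox and CG2747. Tsc1 was most like Lkb1 (0.97), CG11710 and CG4281, and gig was most like scny (0.97), CG7546 and Tmem131. Rheb was most like CG7800 (0.94), CG16743 and CG30428, and REPTOR was most like Atg17 (0.93), CHES-1-like and Atg18b. REPTOR-BP was most like Obp57c (0.96), Lamtor3 (0.96) and CG43091, all 3 with short exons of 549 to 729 bp. Sesn was most like tweek (0.98), Hayan and Men. Of these 30 genes, Lkb1, Lamtor3 and Atg17 also stand in the wider pathway lists below.

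Levels of several members moved with ovarian transcripts across libraries, a relation looked for after seeing the data. The mean log2 CPM of the ovary and egg markers was lowest at −1.16 in the S106>UASfoxo control library of replicate 2 and highest at 6.76 in S106 switch replicate 4. Over 17 libraries S6k had a Pearson r of −0.80 (permutation p = 0.00022, adjusted p = 0.0011 over 10 relations) and a Spearman rho of −0.76 (permutation p = 0.00071, adjusted p = 0.0071). Rheb had an r of −0.78 (permutation p = 0.00018, adjusted p = 0.0011) and a rho of −0.72 (permutation p = 0.00154, adjusted p = 0.0077). Without the 2 libraries farthest from the median the r was −0.73 for S6k and −0.68 for Rheb, and centred within library-number blocks it was −0.73 and −0.80. Sesn had an r of −0.58 (permutation p = 0.0109, adjusted p = 0.0332; rho −0.63, permutation p = 0.00782, adjusted p = 0.0261), but −0.18 within blocks. Thor and REPTOR-BP each had an r of −0.57 with an adjusted permutation p of 0.0332, and a rho of −0.47 with an adjusted permutation p of 0.122. For REPTOR-BP the r was −0.29 without the 2 farthest libraries. The other 5 members had adjusted p-values of 0.122 or above by Pearson's r. Among them gig had an r of −0.15, which was −0.42 centred within groups and 0.37 centred within library-number blocks. Within blocks the r was 0.24 for Tor, 0.56 for raptor, 0.61 for Tsc1 and −0.67 for REPTOR. Among 9785 other genes 27.6 percent had an r at or under −0.5 and 27.5 percent an r at or over 0.5, so values past this cut were common. The share of genes as low as the −0.80 of S6k or the −0.78 of Rheb was not computed. The share of ovarian RNA in the libraries was not separated from changes within fat body cells, and its part in the comparisons was not tested beyond the covariate fit above.

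**Figure D5:**
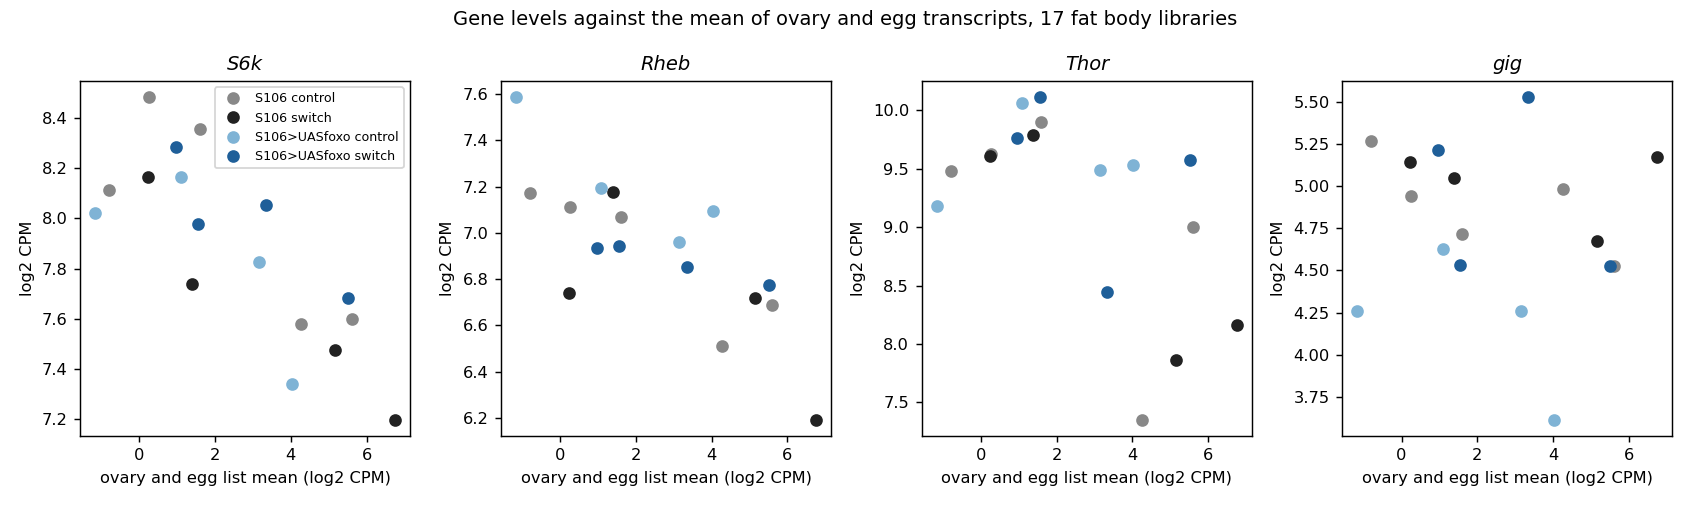
Log2 CPM of S6k, Rheb, Thor and gig against the mean log2 CPM of the ovary and egg markers in the 17 fat body libraries, coloured by group. S6k (r = −0.80) and Rheb (r = −0.78) are lower in libraries with more ovarian transcripts, and Thor is lower with a wider scatter (r = −0.57). For gig the r is −0.15, but 0.37 centred within library-number blocks.

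The rest of the pathway was taken from 6 lists of 76 genes, 70 of them tested. No gene of any list passed the adjusted test in any of the 5 comparisons. Genes named below were picked for the smallest p in S106>UASfoxo switch against control, so their values are no test. For S106>UASfoxo switch against control, 4763 of all 9819 tested genes had a positive value, as had 2 of 6 other TOR complex subunits. Their median log2 fold change was −0.18, but 0.24 with the library-number block and 0.087 without S106>UASfoxo control replicate 4. PRAS40, an inhibitory partner of TORC1, stood at 0.76 ± 0.30 (SE) and rictor, the defining subunit of TORC2, at 0.52 ± 0.30, while Lst8, shared by both complexes, was at −0.27 ± 0.21. Of the 22 genes of the amino acid branch 9 were positive, with a median of −0.09, and 0.016 with the library-number block. Without S106>UASfoxo switch replicate 1 it was −0.17 and without switch replicate 4 it was −0.04. In it Sec13 and Nup44A (the fly SEH1), which are both subunits of GATOR2 and of the nuclear pore, stood at 1.21 ± 0.37 and 0.73 ± 0.31, and RagA-B, a GTPase that recruits TORC1 to the lysosome, at −0.30 ± 0.16. The energy and stress branch had 7 of 11 positive and a median of 0.12. That median was 0.42 with the library-number block, −0.10 with the length trends removed and 0.0013 without S106>UASfoxo switch replicate 1. AMPKalpha, the catalytic subunit of AMP-activated kinase, had a mean of 21.7 ± 9.79 CPM in the controls and 70.2 ± 36.2 CPM in the switch libraries (SD, n = 4 each). In the S106 genotype the means were 51.8 ± 30.0 CPM in the controls (n = 5) and 65.4 ± 28.7 CPM in the switch libraries (n = 4). The log2 fold change of AMPKalpha for the S106>UASfoxo switch was 1.69 ± 0.55, with an unadjusted p of 0.00694 and an adjusted p of 0.274 in edgeR's test. Its regulatory subunit SNF4Agamma stood at 0.79 ± 0.29 and sima, the fly HIF alpha factor, at 0.62 ± 0.31. Between the controls of the genotypes AMPKalpha was at −1.26 ± 0.52, and 8 of the 11 genes of this branch were lower.

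The growth factor branch had 3 of 6 positive and a median of −0.01, which was −0.36 with the length trends removed and 0.19 without S106>UASfoxo control replicate 3. Beside foxo, TBC1d7, a partner of the Tsc1 complex, was at −0.45 ± 0.27 (SE). Of the cap-binding machinery 11 of 17 genes were tested and 5 were positive, with a median of −0.09. This median took either sign, at 0.20 with the library-number block, −0.43 with the length trends removed, 0.20 without switch replicate 2 and −0.29 without switch replicate 1. There mxt (Mextli), which binds eIF4E1, was at 0.89 ± 0.32, Lk6, the kinase of eIF4E, at 0.46 ± 0.36, and pAbp, the poly(A)-binding protein, at 0.26 ± 0.22. Between the S106>UASfoxo and the S106 controls mxt was at −0.68 ± 0.31, and 6 of the 11 tested genes of this list were lower. The list of growth outputs had 8 of 14 positive and a median of 0.27, which was −0.03 with the length trends removed and 0.02 without switch replicate 3. In it the lipid regulators SREBP and Lpin stood at 1.03 ± 0.48 and 1.33 ± 0.62, and Maf1, the repressor of RNA polymerase III, at −0.49 ± 0.21. Over the 6 lists, 9 of the 70 tested genes had an unadjusted p under 0.05, 8 of them higher, beside the background of 12.9 percent.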

How the data were processed

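The deposited fat body table holds raw read counts per gene for 17 libraries of directional poly(A) RNA-seq. The tools featureCounts, HISAT2, SAMtools, FastQC and DESeq2 appear in the submitters' processing notes. The sources used here give no versions, genome build, annotation or strand setting. The labels name molecular barcodes in the library kit, but no source used here says whether counting used them. Rows were matched to symbols by FlyBase identifier (14538 of 14649); 0 of the 10 genes held counts identical to another row. Coordinates and exon lengths come from the BDGP6 Ensembl annotation, and the authors may have used another build.

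All 4 groups entered 1 fit in edgeR 4.0.16 (R 4.3.3), with filterByExpr, TMM scaling, the robust quasi-likelihood test and Benjamini-Hochberg adjustment over 9819 genes at 0.05. The common biological coefficient of variation was 0.510. Log2 CPM used a prior count of 2. Ratios of gene pairs within a library were compared by exact permutation. Relations across libraries used 100000 permutations. No interval for counting error was computed, and counts per library limit the precision.

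The named genes are the 10 members, eIF4E1, foxo, up to 3 genes of smallest p in the S106>UASfoxo switch comparison from each of 6 pathway lists, and the 3 genes most correlated with each member. The members and lists were chosen with earlier results of these data known. Alternatives were DESeq2 1.42.0, limma-voom (limma 3.58.1), RLE size factors, no filter, blocks for the title number and the library number, an ovary and egg covariate and leaving out each library, and, chosen after seeing the data, removal of the exon length trend. Libraries with the same title number gave correlations of their deviations, after subtracting group means, of −0.063 to 0.584 for the S106>UASfoxo groups, −0.420 to 0.770 for the S106 groups and −0.518 to 0.737 for the controls, and were not taken to pair. Blocks of library numbers from the labels gave 0.406 to 0.737 for the control groups, which were taken as paired, and values below 0.1 in at least 1 pair for the other comparisons. The gut table was not used, and 1 gene that the naming rule selects is not reported here. No sequence is shown, since none was given for these genes.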

Additional observations from a re-analysis of the deposited data

Results flagged for a closer look

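In 52 groups of values tested for a single library far from the rest, 2 stood out, and chance flags about 1 in 20 groups. Tor in S106 switch replicate 1 had a log2 CPM of 4.962, below the other 3 libraries of its group, which lay close together at 33.7 to 34.3 CPM against 31.0 CPM. Sesn in S106>UASfoxo switch replicate 4 had a log2 CPM of 7.471, at 177 CPM against 228 to 234 CPM in the other 3 libraries.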

How the results depend on the processing

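In 400 refits of the log2 fold changes of the 10 genes with other settings, 383 kept their direction and their side of the threshold, 16 changed sign and 1 passed the threshold. The 1 was gig in S106>UASfoxo switch against control with the ovary and egg mean as a covariate (0.86, adjusted p = 0.038). Low replication and the spread between libraries limit what the counts can separate, and the cause of the changes below was not tested.

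Counts of called genes depended on the tool. DESeq2 called 61 genes for S106>UASfoxo switch against control, 1 for S106 switch against control, 18 for the genotypes without inducer and 9 after RU486, where edgeR called 0, 0, 4 and 5. The ovary and egg covariate gave 1237, 9 and 9 genes for the S106>UASfoxo switch and the genotype comparisons without inducer and after RU486. For the genotypes without inducer limma-voom and the library-number block called 2 genes each and the replicate block (title number) 1. For the same comparison 0 to 1 were called when each library was left out in turn, and 2 to 4 after RU486. Counts of all genes at an unadjusted p under 0.05, from which the background shares come, also moved with single libraries. They ran from 670 to 1716 for the S106>UASfoxo switch (1269 with all), 28 to 185 for the S106 switch (68), 81 to 553 for the difference (185), 493 to 1393 without inducer (1083) and 89 to 384 after RU486 (154).

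Each value that changed sign was smaller than its SE as reported. With the exon length trend removed, Thor was 0.18, S6k −0.19, REPTOR −0.28 and REPTOR-BP 0.059 for the S106>UASfoxo switch, Sesn −0.030 for the S106 switch, raptor −0.00081 for the difference of the switch effects, S6k 0.072 without inducer and Tor −0.0092 after RU486. With the ovary and egg covariate, Thor was 0.12 for the S106>UASfoxo switch and Tor 0.077 for the S106 switch. With the library-number block, REPTOR was −0.13 for the S106>UASfoxo switch, Sesn −0.12 for the S106 switch, and Thor −0.0069 and REPTOR-BP −0.041 for the difference. With the replicate block, Sesn was −0.13 for the S106 switch and REPTOR −0.044 without inducer. The replicate block changed no other direction or call of a member.

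With each library left out in turn, 469 member values kept their direction, 41 changed sign and none passed the threshold. For the S106>UASfoxo switch, REPTOR ran from −0.28 to 0.42 and Thor from −0.23 to 0.18. For the S106 switch, Sesn ran from −0.19 to 0.19, Thor from −0.53 to 0.052, Tor from −0.061 to 0.073 and Tsc1 from −0.016 to 0.39. For the difference of the switch effects, REPTOR-BP ran from −0.11 to 0.31, Rheb from −0.31 to 0.013, Thor from −0.061 to 0.52, Tsc1 from −0.034 to 0.48 and raptor from −0.0027 to 0.62. REPTOR without inducer ran from −0.20 to 0.50. After RU486, Rheb ran from −0.016 to 0.31, Sesn from −0.12 to 0.27, Tor from −0.14 to 0.28, gig from −0.21 to 0.13 and raptor from −0.45 to 0.10. The log2 ratio of Thor to eIF4E1 ran from −0.88 to 0.10 for the S106 switch and from −0.073 to 0.55 for the S106>UASfoxo switch, and that of Tsc1 to gig from −0.043 to 0.27 for the S106 switch.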
